A study of Homo sapiens with 6 samples.

Results

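The GALNT genes described here encode polypeptide N-acetylgalactosaminyltransferases, and they were followed in AGS cells 48 h after transfection with an siRNA against C1GALT1. The members were GALNT1, GALNT2, GALNT3, GALNT4, GALNT5, GALNT6, GALNT7, GALNT10, GALNT12 and GALNT14, taken by gene symbol. They had 11 probes for 10 genes on the array, of 58201 gene probes and 22439 named genes in all. AGS is a human gastric adenocarcinoma cell line. One group received si-Control, a non-targeting siRNA, and the other received si-C1GALT1-3. Each group had 3 samples grown in RPMI1640 with serum, and each sample was measured on 1 one-colour Agilent array. A single siRNA sequence stood for the knockdown, so an effect of that sequence and an effect of lower C1GALT1 cannot be told apart. Arrays of the same replicate number lay on 1 slide, with si-Control always in the first position and si-C1GALT1-3 in the next, so position and treatment cannot be told apart either.

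GALNT enzymes sit in the Golgi and transfer N-acetylgalactosamine (GalNAc) from UDP-GalNAc to serine or threonine of a protein, which starts a mucin-type O-glycan. Many family members act together in 1 cell type, some on bare peptide and others on peptide that already carries GalNAc nearby. C1GALT1 works on the next step and adds galactose to that GalNAc, which gives the core 1 structure found on many secreted and surface proteins of the stomach. The comparison addressed whether transcripts for the first step differed when the enzyme of the following step was targeted.

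The targeted gene was read first. On the log2 scale, the C1GALT1 probe (A_23_P252145) gave 12.22, 13.03 and 12.62 in si-Control replicates 1, 2 and 3, and 11.76, 11.98 and 11.13 in si-C1GALT1-3. The highest si-C1GALT1-3 value was under the lowest si-Control value. The difference of -1.0 (SE 0.31) on the log2 scale had an adjusted p = 0.265 with limma, and its unadjusted p was above 0.01, so it did not pass the thresholds of the study, which were p under 0.01 and at least 2-fold. It passed them when probes near background were left out of the fit (adjusted p = 0.151).

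The share of gene spots marked as well above background ran from 66.2% to 72.7% over the arrays. A low-signal area in the middle of si-Control replicate 2 held 9712 spots, or 15.9% of gene spots, which were treated as missing on that array. No member spot lay inside it. Over all 58195 probes tested, 1538 probes (2.64%) passed p under 0.01 and 2-fold, 961 higher (1.65%) and 577 lower (0.991%), and 49 (0.0842%) had an adjusted p under 0.05, or 0 with the replicate number as a block. The share of higher probes among those called was 62.5%. Over the alternatives it ran from 40.2% with the low-signal area kept to 72.6% with no normalization between arrays. All 8 epithelial markers were well above background, and 1 of them, ELF3, passed the thresholds with a log2 difference of 1.04, from 2 si-Control arrays because its spot on replicate 2 lay in that area. Of the markers of other cell types, 3 of 6 fibroblast, 4 of 5 leukocyte (PTPRC among them) and 2 of 4 endothelial genes were well above background, while COL1A2 and LUM were so on no array. None of these passed the thresholds. PDGFRB (log2 difference -0.81, adjusted p = 0.207) and VWF (-1.03, adjusted p = 0.257), both with 2 si-Control arrays, were lower on every si-C1GALT1-3 array, and COL3A1 had 1.17 (adjusted p = 0.351) with overlapping groups. All 4 endothelial means were lower, with a median of -0.44, but PECAM1 and KDR were not well above background on most arrays. Among these 4 genes, VWF alone had groups that did not overlap. The summed intensity ran from 12968 to 21388 in si-Control and from 12586 to 13965 in si-C1GALT1-3 for leukocyte markers, from 966 to 13065 and from 7692 to 8958 for fibroblast markers, and from 366 to 1335 and from 574 to 830 for endothelial markers. The si-Control ranges of the fibroblast and endothelial sums include replicate 2, where spots were missing. The part of these markers in the results was not tested.

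None of the 11 member probes passed p under 0.01 and 2-fold in limma, beside 2.64% of all probes and 3.14% of those well above background in at least 1 group, and none had an adjusted p under 0.05. At an unadjusted p under 0.05 there were 2, GALNT4 and GALNT7, beside 13.8% of all probes, and with the methods' t-test on the same values 4 were under 0.05 and 0 were called. The member count under 0.05 ran from 0 with the low-signal area kept to 5 with it widened. It was 3 with the replicate number as a block and 3 without si-Control replicate 2. It was 1 when replicate 1 of si-Control was left out, as when replicate 2 or 3 of si-C1GALT1-3 was. The count over all probes moved too, from 8028 in the main fit to 6227 with the area kept and 8266 with it widened. It was 10073 with the block and 8705 without si-Control replicate 2. Without si-Control replicate 1 it was 7396, and without replicates 2 and 3 of si-C1GALT1-3 it was 5363 and 8234. Whether the member counts moved apart from the count over all probes was not tested. Of the 10 member probes well above background on all 6 arrays, 6 had a higher mean in si-C1GALT1-3 and 4 a lower mean. The groups did not overlap for 6 of these 10 probes. GALNT1 (both probes), GALNT4, GALNT6 and GALNT7 were higher on every si-C1GALT1-3 array, and GALNT10 was lower. Among all probes tested, 11% did not overlap in the higher direction and 10.4% in the lower direction, and among the 38659 probes well above background in at least 1 group the shares were 13.8% and 12.4%. The 10 log2 differences ran from -0.47 to 0.98 with a median of 0.21, and the median over all probes was -0.0048.

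GALNT4 had the smallest p of the members. Its enzyme, which is known to glycosylate PSGL-1, has a preference for peptides that already hold GalNAc. The GALNT4 probe (A_24_P942370) gave log2 signals of 6.75, 7.35 and 7.23 in si-Control replicates 1, 2 and 3, and of 8.14, 7.83 and 8.30 in si-C1GALT1-3. All 3 si-C1GALT1-3 arrays were above all 3 si-Control arrays, with the gap between 7.35 and 7.83. The mean log2 difference was 0.98 (SE 0.22, 95% interval 0.43 to 1.53, n = 3 and 3; adjusted p = 0.172), or 1.97-fold, which is just under the 2-fold threshold. Within slides 1, 2 and 3 the log2 differences were 1.39, 0.48 and 1.07, so the direction was shared and the size varied. In RefSeq the gene overlaps the readthrough gene POC1B-GALNT4, and which of these transcripts the probe read was not tested.

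The position of GALNT4 against the threshold depended on the processing. It passed p under 0.01 and 2-fold with the low-signal area widened by 10 lines and columns (log2 difference 1.01, adjusted p = 0.149), when si-Control replicate 2 was left out (1.1, adjusted p = 0.216) and when si-C1GALT1-3 replicate 2 was (1.1, adjusted p = 0.367). With the low-signal area kept the log2 difference was 0.79 and it did not pass. The adjusted p ran from 0.0975 to 0.544 over the alternatives tried, none of which brought it under 0.05. Over the 6 arrays and among 18635 probes well above background on all of them, the named genes outside the family whose log2 signal ran most like GALNT4 were ZNF790 (Pearson r = 0.996), RETREG3 (r = 0.996) and ANKRD46 (r = 0.995). Each r rests on 6 points that share the group difference and the slides, and it is the highest of a very large number, so it is given as a description. ANKRD46 gave 7.71, 8.30 and 8.32 in si-Control and 9.18, 8.78 and 9.25 in si-C1GALT1-3 on the log2 scale, also with no overlap.

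GALNT7 and GALNT10 encode enzymes that act mostly on substrates already carrying GalNAc, and their differences had opposite signs. The GALNT7 probe (A_23_P144384) gave log2 signals of 11.47, 11.56 and 11.75 in si-Control and 11.82, 12.08 and 12.03 in si-C1GALT1-3. The groups did not overlap, though the highest si-Control array and the lowest si-C1GALT1-3 array differed by little. The log2 difference was 0.38 (SE 0.15, 95% interval 0.01 to 0.75; adjusted p = 0.348), with within-slide values of 0.35, 0.52 and 0.28. For GALNT10 (A_33_P3703501) the log2 signals were 11.08, 11.20 and 11.21 in si-Control and 10.97, 10.96 and 10.72 in si-C1GALT1-3. Here every si-C1GALT1-3 array was the lower one. The log2 difference was -0.28 (SE 0.14, 95% interval -0.62 to 0.06; adjusted p = 0.438), and within slides it was -0.11, -0.25 and -0.49. The difference between the probes' responses was not tested.

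The promoters of GALNT7 and GALNT10 are shown because their groups did not overlap in opposite directions, and that of GALNT3 because its measurement depended most on the array surface. They come from RefSeq on GRCh38.p14, each with 250 bases before and 50 after the gene start, on the strand of the gene. GALNT7 lies at chr4:173168561-173168860 (plus strand), GALNT10 at chr5:154190483-154190782 (plus strand) and GALNT3 at chr2:165794198-165794497 (minus strand). Entries were found for 7 of the 10 members and not for GALNT4, GALNT5 or GALNT6. Capitals mark the GC box, which reads GGGCGG, and the CCAAT box, each also where its reverse complement stands.
GALNT7: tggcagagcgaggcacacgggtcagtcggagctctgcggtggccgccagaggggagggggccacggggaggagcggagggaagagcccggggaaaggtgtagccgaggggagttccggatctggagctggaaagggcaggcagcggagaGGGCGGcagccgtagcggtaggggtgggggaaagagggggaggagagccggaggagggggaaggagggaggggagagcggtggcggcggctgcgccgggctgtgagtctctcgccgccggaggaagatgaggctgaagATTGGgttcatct
GALNT10: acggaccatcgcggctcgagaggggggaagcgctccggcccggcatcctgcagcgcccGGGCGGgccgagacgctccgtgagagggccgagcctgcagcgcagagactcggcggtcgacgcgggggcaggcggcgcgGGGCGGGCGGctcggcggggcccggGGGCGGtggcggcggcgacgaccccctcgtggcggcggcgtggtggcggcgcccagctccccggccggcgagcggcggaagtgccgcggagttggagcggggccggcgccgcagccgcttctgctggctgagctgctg
GALNT3: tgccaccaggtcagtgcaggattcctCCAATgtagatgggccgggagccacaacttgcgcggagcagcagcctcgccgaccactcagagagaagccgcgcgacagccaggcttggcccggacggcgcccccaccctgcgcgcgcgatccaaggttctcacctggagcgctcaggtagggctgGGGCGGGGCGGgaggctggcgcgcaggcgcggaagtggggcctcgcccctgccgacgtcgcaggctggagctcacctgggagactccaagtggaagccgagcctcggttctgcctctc
The GALNT7 window held 1 GC box and 1 CCAAT match at a GC content of 69.7%. That CCAAT match is the reverse complement ATTGG and lies after the gene start. The GALNT10 window held 4 GC boxes, some of which overlap, and no CCAAT box at 81.0% GC. In the GALNT3 window there were 2 overlapping GC boxes and 1 CCAAT box at 70.0% GC. Among 35116 RefSeq promoters of 300 bases, 45.0% hold the GC box and 34.6% the CCAAT box on either strand. The TATA motif TATAAA (11.5% of promoters) and the E-box CACGTG (7.26%), also searched on both strands, were not in the window of any of the 10 member entries. These matches describe letters in the sequence and not binding.

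GALNT1 and GALNT2 encode broadly expressed transferases that act on bare peptides, so that they start O-glycans on many proteins. The brighter GALNT1 probe (A_33_P3210218) gave log2 signals of 11.82, 12.10 and 12.12 in si-Control and 12.25, 12.36 and 12.58 in si-C1GALT1-3. The other GALNT1 probe (A_23_P306105) gave 9.72, 10.28 and 10.31 in si-Control and 10.51, 10.35 and 10.64 in si-C1GALT1-3. Both probes were higher on every si-C1GALT1-3 array and on each of the 3 slides. Their log2 differences were 0.38 (SE 0.16, 95% interval -0.02 to 0.78; adjusted p = 0.380) and 0.39 (SE 0.21, 95% interval -0.12 to 0.91; adjusted p = 0.476). They read the same samples, so they are not independent replicates of the gene.

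GALNT2, whose loss in people lowers HDL cholesterol, had the smallest difference. Its probe (A_24_P353794) gave log2 signals of 10.43, 10.80 and 10.77 in si-Control and 10.56, 10.60 and 10.95 in si-C1GALT1-3. The groups overlapped, and the slides differed in sign, with within-slide log2 differences of 0.13, -0.20 and 0.18. The mean log2 difference was 0.04 (SE 0.18, adjusted p = 0.968), and its 95% interval of -0.42 to 0.49 leaves room for differences in either direction.

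GALNT3 and GALNT6 encode closely related enzymes, and GALNT3 is best known for protecting the hormone FGF23 from cleavage. The GALNT6 probe (A_33_P3215768) gave log2 signals of 11.47, 12.00 and 11.69 in si-Control and 12.15, 12.17 and 12.09 in si-C1GALT1-3. Every si-C1GALT1-3 array was above every si-Control array, and the si-C1GALT1-3 arrays lay within a narrower range. The log2 difference was 0.42 (SE 0.17, 95% interval -0.01 to 0.85; adjusted p = 0.373), and it was 0.68, 0.18 and 0.40 within slides 1, 2 and 3.

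GALNT3 could not be read from all 6 arrays alike. Its probe (A_24_P114249) gave log2 signals of 10.65, 9.21 and 10.54 in si-Control and 9.74, 10.07 and 9.93 in si-C1GALT1-3. The value of si-Control replicate 2 was below all others, while the other si-Control arrays were above all si-C1GALT1-3 arrays. The spot lies at line 209 and column 57, which is 2 columns from the edge of the low-signal area. On si-Control replicate 2, the 101 gene spots around it outside that area had a median log2 deviation of -1.29 from the other si-Control arrays, the GALNT3 spot itself deviated by -1.38, and spots far from the area had a median of -0.012. With all 6 arrays the GALNT3 log2 difference was -0.22 (SE 0.41, 95% interval -1.24 to 0.80; adjusted p = 0.880). With the area widened by 10 lines and columns, which leaves the spot out on that array, it was -0.68 (SE 0.17, adjusted p = 0.219, n = 2 and 3), still short of the thresholds. Without si-Control replicate 1 it was 0.038.

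GALNT5 encodes a transferase found mainly in epithelia that make mucins. Its probe (A_24_P408736) gave log2 signals of 7.99, 7.65 and 9.20 in si-Control and 7.50, 7.61 and 8.32 in si-C1GALT1-3. The groups overlapped, and replicate 3 was the highest of both groups. The log2 difference was -0.47 (SE 0.46, 95% interval -1.62 to 0.68; adjusted p = 0.710), although it was negative on each slide at -0.49, -0.04 and -0.88. This spot is 10 columns from the low-signal area. On si-Control replicate 2 it had a log2 deviation of -0.90 from the other si-Control arrays, and the 140 spots around it had a median of -0.33. The difference was -0.79 with the widened area and also without si-Control replicate 2, and it was -0.013 without si-Control replicate 3, which leaves the si-C1GALT1-3 array of that slide without its partner. With the replicate number as a block its SE was 0.21 (adjusted p = 0.356).

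GALNT12 is expressed in the digestive tract, and inherited variants of it have been linked to colorectal cancer. Its probe (A_23_P415652) gave log2 signals of 10.70, 11.28 and 10.33 in si-Control and 10.79, 10.92 and 9.90 in si-C1GALT1-3. The groups overlapped, with replicate 3 the lowest of both. The log2 difference was -0.23 (SE 0.37, 95% interval -1.15 to 0.69; adjusted p = 0.850), and the within-slide values were 0.10, -0.36 and -0.43.

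GALNT14, which is known for O-glycosylation of death receptors, had a signal near background on all 6 arrays, none of them marked as well above it. Its probe (A_23_P67847) gave log2 signals of 3.12, 3.20 and 3.19 in si-Control and 3.45, 4.84 and 3.28 in si-C1GALT1-3. One array, si-C1GALT1-3 replicate 2, stood above the rest, and no fold is given because both groups were at background.

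The signs of the log2 differences were compared over the alternatives, not all of which could change them. Settings that changed only the estimate of spread or the set of probes fitted gave the main log2 difference again. On fixed values, leaving out 1 array cannot reverse groups that did not overlap, as for GALNT1, GALNT4, GALNT6, GALNT7 and GALNT10. For these genes the sign was open mainly to the masking, normalization and signal settings. GALNT1, GALNT4, GALNT6 and GALNT7 kept a positive log2 difference under all alternatives tried, from 0.17 to 0.52 and from 0.25 to 0.49 for the GALNT1 probes, 0.69 to 1.1 for GALNT4, 0.29 to 0.56 for GALNT6 and 0.28 to 0.50 for GALNT7. GALNT10 stayed negative, from -0.40 to -0.16, and so did GALNT5, from -0.79 to -0.013. GALNT2, GALNT3 and GALNT12 changed sign under at least 1 alternative. GALNT3 did so only without si-Control replicate 1, which keeps its replicate 2 spot beside the low-signal area.

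The rest of the O-GalNAc pathway was read from 3 lists, with 1 probe per gene. The other 10 GALNT family genes were all on the array, and the signal of 4 of them was well above background throughout at least 1 group, while that of 3 was so on no array. In limma 0 passed p under 0.01 and 2-fold and 2 had an unadjusted p under 0.05, with a median log2 difference of -0.27 over the list. GALNT8, whose function is poorly known, had the largest fitted difference. Its signal was well above background on 0 of 3 si-Control arrays and 2 of 3 si-C1GALT1-3 arrays. The fitted log2 difference was 1.53 (SE 0.46, adjusted p = 0.257). With si-Control values raised to the lowest signal marked well above background on each array, it was 1.03-fold. That fold uses si-C1GALT1-3 replicate 1, which was not so marked, so it is not a strict lower limit. GALNT8 passed the thresholds with the replicate number as a block (adjusted p = 0.180). GALNT9, named after its values were seen, gave 12.96, 12.59 and 12.51 on the log2 scale in si-Control and 11.96, 11.87 and 12.14 in si-C1GALT1-3 on its brighter probe. These groups did not overlap, with a log2 difference of -0.70 (SE 0.17, adjusted p = 0.199), and its dimmer probe had 0.35 (SE 0.35) and overlapping groups.

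The genes that supply UDP-GalNAc were all measured, 7 of 7, and 6 were well above background. In limma 0 passed the thresholds and 1 had an unadjusted p under 0.05, and the median log2 difference was 0.03. The largest difference was that of PGM3, which makes GlcNAc-1-phosphate in the hexosamine pathway. PGM3 gave log2 signals of 11.92, 12.34 and 11.70 in si-Control and 11.07, 10.99 and 11.30 in si-C1GALT1-3. The groups did not overlap, and the log2 difference was -0.87 (SE 0.21, adjusted p = 0.189).

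Of 10 genes listed for the steps after the first GalNAc, 9 were measured and 8 were well above background. In limma 0 passed and 1 had an unadjusted p under 0.05, and the median log2 difference was -0.022. C1GALT1 had the largest difference, as given above. Its chaperone C1GALT1C1, named after its values were seen, had 0.27 (SE 0.17, adjusted p = 0.558) with overlapping groups.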

How the data were processed

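Expression was measured in AGS cells on 6 one-colour Agilent arrays, 3 per group. The authors deposited the output of Agilent Feature Extraction 10.5.1.1, as listed in the submitters' processing notes, in which each spot has a fluorescence intensity. The processed intensity had its background removed by the scanner software, and the arrays were left on their own scales. The value table that the authors deposited for the series holds intensity with background subtracted.

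From these, log2 of the processed intensity was taken, control spots were left out, and 100 to 424 outlier spots per array and the low-signal area of si-Control replicate 2 (lines 113 to 288, columns 59 to 115) were set to missing. Arrays were quantile normalized, spots of a probe averaged, and groups compared with limma 3.58.1 in R 4.3.3, with Benjamini-Hochberg adjustment over 58195 probes. Thresholds were p under 0.01 and 2-fold. Well above background is the scanner software's own mark. Probes were named by RefSeq accession (31104 with 1 symbol, 27097 without). The files name another genome build than RefSeq's table, so no probe coordinates are given. A gene's probe in a list was the one with the highest mean log2 signal.

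The members and lists were chosen with earlier results of these data known. Named genes were the members, C1GALT1, the called genes and the largest difference of each list, and the 3 genes most like the member with the smallest p. Nothing states that replicates were separate cultures, so p-values measure the spread between these samples, which may be technical. The number of arrays limits the precision. In the scanner files each replicate number is 1 slide, and deviations from group means correlated within numbers at 0.198, 0.215 and 0.329 (48794 probes). The main fit did not use this pairing, and a block for the replicate number was run as an alternative. Other alternatives were no or a wider masked area, 75th percentile scaling or none, and normexp (offset 50, on median spot signal and background). Also run were a filter on dim probes, a trended robust prior, Student's t-test in place of limma, outlier spots kept, the series table, and each array left out. The procedure was tested on simulated data.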

Additional observations from a re-analysis of the deposited data

How the results depend on the processing

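The count of all probes past p under 0.01 and 2-fold (1538) was 920 with normexp, 896 with Student's t-test and 909 with the series table, and 1126 to 1781 with 1 array left out. The share of these that were higher was 62.5%, and it was 40.2% with the low-signal area kept, 54.1% with 75th percentile scaling, 72.6% with no normalization, 40.3% with the series table and 52.2% without si-Control replicate 1. With 75th percentile scaling the median of all probes was -0.107 on the log2 scale. The 49 probes with an adjusted p under 0.05 became 429 with normexp, 545 without dim probes and 31 with 75th percentile scaling. They became 2 with Student's t-test, 60 with the wider masked area, and 0 under the other settings, among them the block and every array left out.

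Member probes called were 1 (GALNT4) with the wider masked area and 0 to 1 with 1 array left out, GALNT4 being called when replicate 2 of either group was the one left out. Pathway genes called were 1 with 75th percentile scaling and with no normalization (GALNT8 in both), 1 without dim probes (C1GALT1), and 0 to 3 with 1 array left out. Those 3, without si-Control replicate 3, were PGM3, GALNT8 and GALNTL5, the last well above background on no array. With the replicate block the all-probe count was 1604, member probes called were 0 and pathway genes 1 (GALNT8), and it changed no other call of a member or pathway gene. Member probes at an unadjusted p under 0.05 were then 3, with the brighter GALNT1 probe added, and GALNT4 no longer had p under 0.01. Over all probes, those under 0.05 rose from 8028 in the main fit to 10073 with the block. The block was not run on the marker ELF3 by itself.

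GALNT2 was -0.076 with the low-signal area kept and -0.040 with the series table, and -0.087 to 0.109 with 1 array left out. With 1 array left out GALNT3 ran from -0.69 (without si-Control replicate 2) to 0.038 (without si-Control replicate 1), and GALNT12 from -0.45 to 0.087. The 0.038 keeps the replicate 2 spot beside the low-signal area. The causes were not tested. The SE of GALNT5 and GALNT12 was 0.46 and 0.37, and 0.21 and 0.16 with the replicate block, under which neither had an unadjusted p under 0.05.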
